A study of Mus musculus with 10 samples.

Results

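Pax5 G183S was compared with empty vector on 7 arrays of the mouse line J558, which comes from a myeloma, a tumour of plasma cells. These were the arrays that the labels assign to these groups, out of 10 in the series. The 4 G183S arrays measured cells given the retroviral vector MSCV-PIG with Pax5 carrying the G183S change, and the 3 empty-vector arrays measured cells given the same vector, with puromycin resistance and green fluorescent protein but no Pax5. The other 3 arrays carried wild-type Pax5; they shared the estimate of spread and are named for the difference between the proteins and beside G183S replicate 1. All cells, controls included, spent 5 to 7 days under puromycin before a sort for green fluorescence and IgM, and the labels do not say which IgM gate each group passed. Trizol-extracted total RNA, 100 ng per sample, was hybridised to Affymetrix arrays after amplification with the Ambion WT kit. The labels call the replicates biological but do not say whether they came from separate infections of this 1 cell line, so p-values measure only the spread between these samples.

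Pax5 is the transcription factor that commits lymphoid progenitors to the B lineage. It switches on B-cell receptor components and surface molecules, holds genes of other lineages down, and is itself shut off when a B cell becomes an antibody-secreting plasma cell. Its octapeptide motif, where the G183S change replaces glycine by serine, binds co-repressors of the Groucho family. The study as titled is about germline PAX5 lesions in leukaemia, and the comparison asks which genes the altered protein moves in cells that hold little Pax5 of their own.

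G183S replicate 1 stood apart from the other G183S arrays. In 357 of 19937 genes it lay at least 1 log2 unit from the mean of the other G183S arrays while these spanned less than 1 unit, and the same count was 17, 75 and 8 for replicates 2, 3 and 4. Across all genes, which are not independent replicates, it correlated less with the other G183S arrays (Pearson r of 0.9882, 0.9853 and 0.988 with replicates 2, 3 and 4) than with the wild-type arrays (0.9938, 0.9953 and 0.9909 with wild-type replicates 1, 2 and 3). Wild-type replicate 3 in turn correlated more with G183S replicates 2 and 4 (0.9939 and 0.9934) than with wild-type replicate 1 (0.9867). Results that rest on G183S replicate 1 are therefore given with and without it. G183S replicate 3 was the lowest G183S array in 16 of the 20 genes called higher below. The median probe set read 6.81 to 6.94 log2 units on the 10 arrays, and no scan date or extraction batch was used here. Plasma-cell markers fixed for checking the line (8 measured) had mean levels of 11.75 to 11.93 in the empty-vector arrays and 10.99 to 11.93 in the G183S arrays, all 8 above the median gene on every array. Mature B-cell markers (7 measured) had means of 7.91 to 8.01 and 8.82 to 9.53. These markers include Pax5, the gene the vector carried, so part of their rise is the transduced transcript itself. Among the other members, Fcer2a, Ms4a1 and Ciita had larger differences than Cd22, Cd37 and Cr2, so the mean does not describe a rise shared by all. Markers of T cells (7 measured, means 6.35 to 6.63 and 6.0 to 6.22), myeloid cells (8, 5.80 to 5.81 and 5.64 to 5.94) and erythroid cells (3, 6.33 to 6.41 and 6.24 to 6.33) had at most 1 member above that median on any array; 2 or 3 of 6 stromal and epithelial markers were above it.

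Pax5 transcript was present at a high level in every G183S array. It read 7.10, 6.84 and 7.01 log2 units with empty vector and 10.22, 10.36, 9.38 and 9.96 in G183S replicates 1 to 4, so the groups lay far apart and replicate 3 was the lowest of the transduced arrays. G183S exceeded empty vector by 3.0 ± 0.23 SE log2 units (limma adjusted p = 0.00117). The 1 probe set does not tell mutant transcript from wild-type transcript.

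With G183S, the MHC class II genes H2-Ob and H2-Eb2, the receptor genes Fcgr2b, Ms4a1 and Cd36 and the membrane and actin genes Bin1 and Fhod3 rose. The adhesion genes Gp9 and Pecam1, the transporter and channel genes Slc16a5 and Kcnn4 and the GTPase gene Rhob fell. At an adjusted p under 0.05, limma called 62 of 19937 genes (0.311%), of which 20 were higher (0.100%) and 42 lower (0.211%). The higher genes changed by 0.47 to 5.63 log2 units and the lower ones by -0.40 to -2.58. Of the 29 genes that changed by at least 1 log2 unit, 14 were higher and 15 lower. In each of the 62 the groups did not overlap, as was true of 11.6% of all genes (5.02% higher, 6.56% lower), and 2253 genes had an unadjusted p under 0.05. The count depended on single arrays: it was 11 without empty-vector replicate 2, 8 without empty-vector replicate 3, 22 and 24 without G183S replicates 2 and 4, 112 without wild-type replicate 1, 144 without G183S replicate 3 and 295 without G183S replicate 1. Without empty-vector replicate 1 it was 87, with 50 higher and 37 lower. The 30 called genes checked kept their sign in each of these fits, which had to be so because their groups did not overlap. Whichever of the 10 arrays was left out, 8 genes passed, namely Pax5, Cd36, St3gal6, Bin1, H2-Ob, Fcgr2b, Gp9 and the zinc-finger gene Zfp523.

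**Figure D1:**
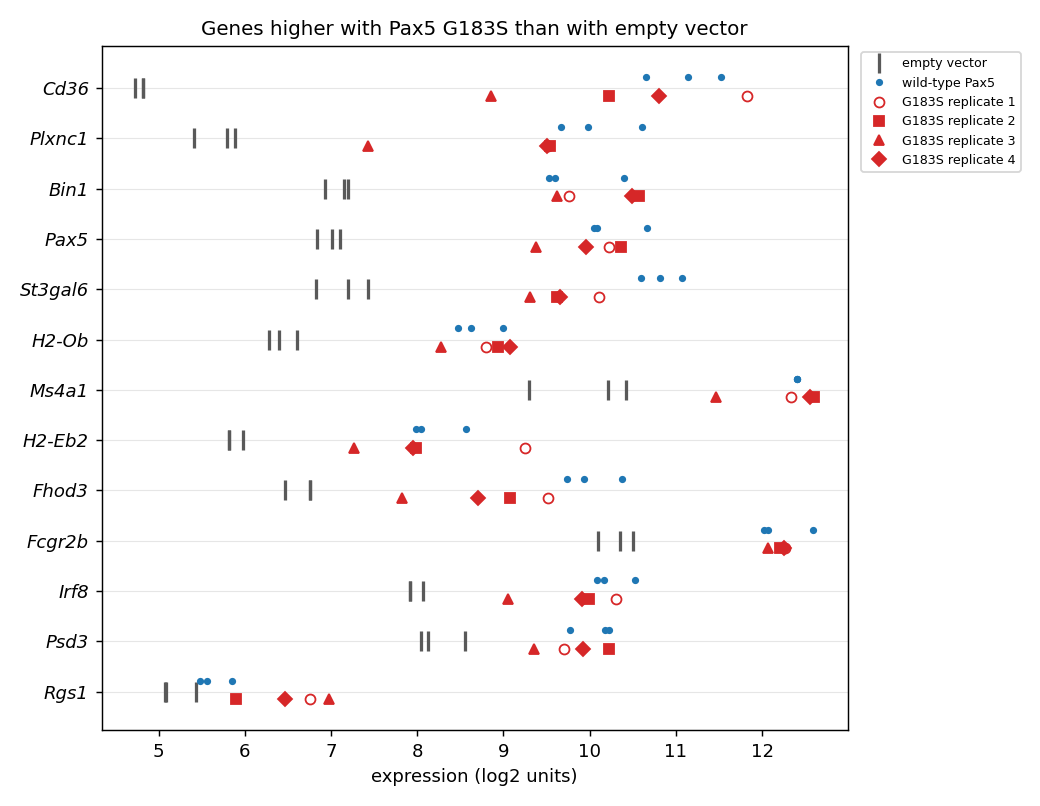
Expression in log2 units (x axis) of Pax5 and 12 genes called higher with G183S by at least 1 log2 unit (y axis, ordered by the difference). Grey bars are empty-vector arrays, blue dots wild-type arrays, and red symbols the 4 G183S arrays, with replicate 1 open; every G183S symbol lies to the right of every grey bar, and replicate 3 (triangle) is the leftmost red symbol for most genes.

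MHC class II molecules present peptides to helper T cells and are made by B cells but little by plasma cells. Their genes are driven by Ciita, a transactivator that does not bind DNA itself and is recruited by factors sitting on conserved promoter boxes, among them the Y box, a CCAAT element bound by NF-Y. The starts of 3 of these genes are shown because every measured member had a higher mean with G183S, each from 250 bases before to 50 bases after the gene's start in RefSeq's GRCm38.p6 annotation, with the Y-box letters TGATTGG in capitals. H2-Ob lies on the plus strand at chr17:34238655-34238954, H2-Eb2 on the plus strand at chr17:34325425-34325724 and H2-Aa on the minus strand at chr17:34287774-34288073; each window holds the upstream region and the first transcribed bases.
H2-Ob: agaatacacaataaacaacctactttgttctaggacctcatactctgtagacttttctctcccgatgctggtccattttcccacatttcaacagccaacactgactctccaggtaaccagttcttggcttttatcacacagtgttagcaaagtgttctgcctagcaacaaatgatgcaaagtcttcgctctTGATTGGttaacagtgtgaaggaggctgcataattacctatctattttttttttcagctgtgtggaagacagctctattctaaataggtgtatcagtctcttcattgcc
H2-Eb2: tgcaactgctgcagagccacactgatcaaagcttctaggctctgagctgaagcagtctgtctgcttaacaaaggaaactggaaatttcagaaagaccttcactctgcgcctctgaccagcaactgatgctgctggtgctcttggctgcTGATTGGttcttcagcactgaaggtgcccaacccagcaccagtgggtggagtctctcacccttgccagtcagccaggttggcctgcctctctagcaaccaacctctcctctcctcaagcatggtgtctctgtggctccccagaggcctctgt
H2-Aa: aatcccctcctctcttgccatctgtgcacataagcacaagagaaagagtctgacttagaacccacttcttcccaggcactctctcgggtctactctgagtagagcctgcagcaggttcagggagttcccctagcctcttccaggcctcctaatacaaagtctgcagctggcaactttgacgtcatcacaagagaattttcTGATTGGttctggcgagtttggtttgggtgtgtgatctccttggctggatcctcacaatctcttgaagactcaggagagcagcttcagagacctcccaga
The box began 59, 102 and 50 bases before the start of H2-Ob, H2-Eb2 and H2-Aa. Searched on both strands, TGATTGG was in 7 of the 9 windows found for 8 of the 12 listed MHC class II genes, and in 2568 of 32851 windows of that length over all genes (7.82%). Of the windows of called genes other than Pax5, 5 of 16 (31.2%) held it among the higher genes, namely H2-Ob, H2-Eb2, Cd36, Irf8 and the cargo-receptor gene Tmed5, and 5 of 42 (11.9%) among the lower genes. These matches describe letters in a window and not bound sites.

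H2-Ob, the beta chain of the MHC class II-like molecule that restrains peptide loading in B cells, read 6.61, 6.39 and 6.28 log2 units with empty vector and 8.80, 8.94, 8.28 and 9.08 with G183S replicates 1 to 4. All G183S arrays lay well above the controls and close to one another (log2 difference 2.35 ± 0.19 SE, limma adjusted p = 0.00117). H2-Eb2, a beta chain gene of the same region, read 5.98, 5.81 and 5.81 against 9.25, 7.98, 7.26 and 7.95, with replicate 1 highest (2.24 ± 0.37 SE, limma adjusted p = 0.0449). Without replicate 1 the H2-Eb2 difference was 1.86 ± 0.21 SE (limma adjusted p = 0.00782). H2-Ob and H2-Eb2 were the MHC class II genes that passed with all arrays, 2 of 10 measured against 0.100% of all genes higher, and 0 fell.

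The other MHC class II genes were spread more widely among the G183S arrays. H2-Ea, the alpha chain of I-E, read 6.23, 6.49 and 6.10 with empty vector and 11.37, 9.45, 8.62 and 8.77 with G183S. Its groups were far apart, but replicate 1 lay 2.43 log2 units above the mean of the other G183S arrays, and the difference of 3.28 ± 0.63 SE did not pass (limma adjusted p = 0.0725); without replicate 1 it was 2.67 ± 0.41 SE (limma adjusted p = 0.0214). H2-Aa, the alpha chain of I-A, had the same order of arrays, at 9.82, 8.20, 7.61 and 7.76 with G183S and 6.22, 6.59 and 6.13 with empty vector (2.03 ± 0.53 SE, limma adjusted p = 0.142). Without replicate 1 the H2-Aa difference was 1.54 ± 0.37 SE (limma adjusted p = 0.0705). Cd74 (0.79), which encodes the invariant chain, and the beta chain genes H2-Ab1 (1.33) and H2-Eb1 (1.40) had log2 differences in the same direction that did not pass (limma adjusted p = 0.0762, 0.0906 and 0.0790). The peptide-loading chain gene H2-DMa (0.40) and H2-Oa (0.12), the partner chain of H2-Ob, had the smallest log2 differences.

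Ciita itself read 7.32, 6.95 and 6.76 with empty vector and 7.67, 7.75, 7.45 and 7.83 with G183S. Its groups did not overlap, the log2 difference was 0.67 ± 0.16 SE and it did not pass (limma adjusted p = 0.118). Of the 10 measured genes of the list 9 had non-overlapping groups, all higher, where 5.02% of all genes did. The median of the list's log2 differences was 1.36, against -0.0033 over all genes tested, and 1.11 without replicate 1. Relative to the empty-vector mean, the list's median was 2.14 in G183S replicate 1 and 1.23, 1.07 and 1.03 in replicates 2, 3 and 4.

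**Figure D2:**
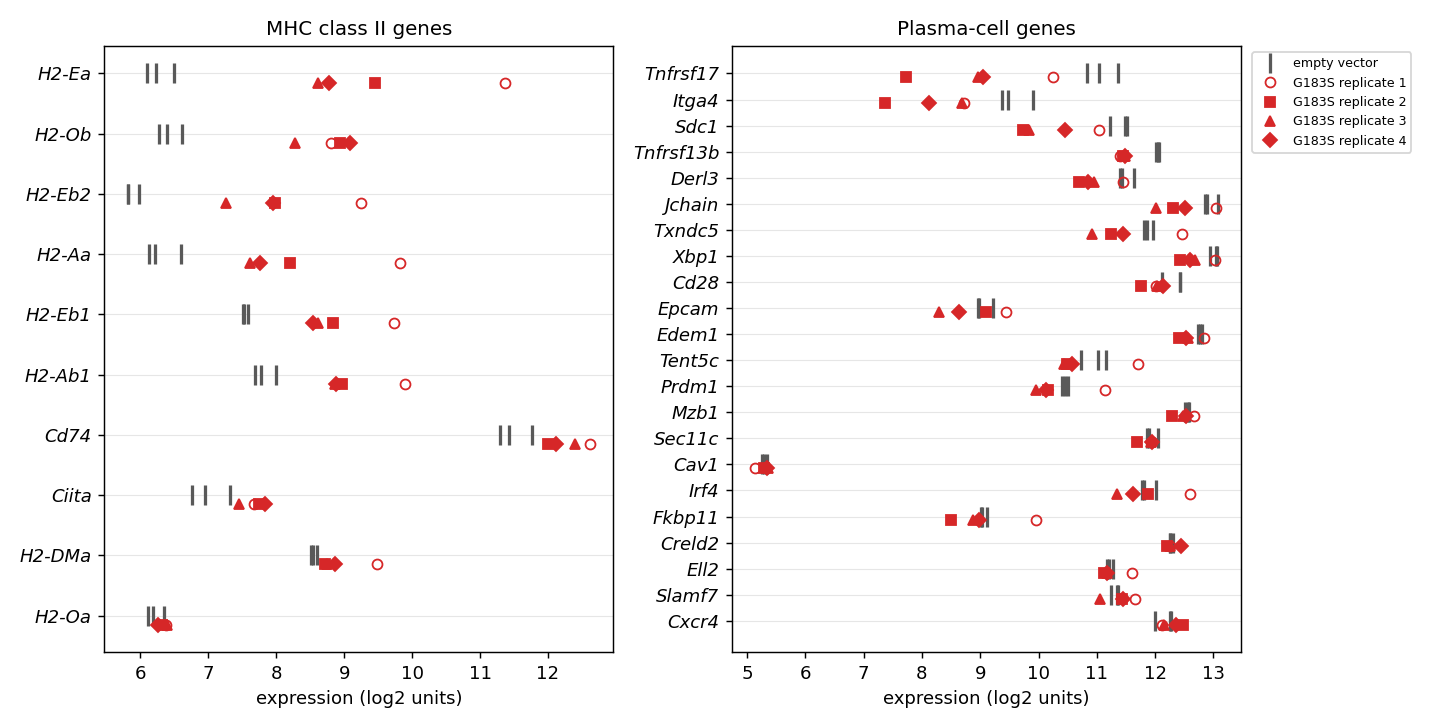
Expression in log2 units (x axes) of the 10 measured MHC class II genes (left) and the 22 measured plasma-cell genes (right); grey bars are empty-vector arrays and red symbols the 4 G183S arrays, replicate 1 open. On the left, 9 genes have all G183S arrays right of the controls with replicate 1 furthest right in most; on the right, replicate 1 lies near or right of the controls for many genes whose other G183S arrays lie left.

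Among B-cell genes outside MHC class II, 3 rose, and they encode surface receptors and a transcription factor. Fcgr2b, the inhibitory Fc receptor that dampens B-cell receptor signals, read 10.50, 10.35 and 10.10 with empty vector and 12.27, 12.21, 12.07 and 12.26 with G183S. The 4 G183S arrays lay closer together in this gene than the controls did, and G183S exceeded empty vector by 1.89 ± 0.14 SE log2 units (limma adjusted p = 0.00117). Ms4a1, which encodes the B-cell surface protein CD20, read 9.30, 10.42 and 10.21 against 12.34, 12.60, 11.47 and 12.56 (2.27 ± 0.30 SE, limma adjusted p = 0.0171). Irf8, a transcription factor of B-cell and myeloid development and an established Pax5 target, read 7.92, 8.07 and 7.91 against 10.31, 9.99, 9.05 and 9.91 (1.85 ± 0.25 SE, limma adjusted p = 0.0171). In both genes replicate 3 was the lowest G183S array and still lay above every control.

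Several B-cell genes had non-overlapping groups without passing when all arrays were used. Fcer2a, the low-affinity IgE receptor CD23, read 7.53, 7.35 and 7.11 with empty vector and 11.34, 10.84, 9.17 and 9.98 with G183S, a log2 difference as large as that of Pax5 but with a wide spread (3.0 ± 0.51 SE, limma adjusted p = 0.0501; 0.0317 without replicate 1). Siglecg, an inhibitory sialic acid receptor, read 6.81, 6.85 and 6.74 against 7.81, 7.47, 7.50 and 7.39 (0.74 ± 0.15 SE, limma adjusted p = 0.0762). Cd72, an inhibitory receptor for a semaphorin, read 5.28, 5.25 and 5.39 against 6.35, 5.88, 5.71 and 5.86 (0.65 ± 0.14 SE, limma adjusted p = 0.0884). Replicate 1 was its highest array, and without replicate 1 Cd72 passed (0.51 ± 0.09 SE, limma adjusted p = 0.0357). The adaptor gene Blnk (0.70, limma adjusted p = 0.150) was higher in every G183S array than in every control, while Cd79a, a signalling chain of the B-cell receptor and a known Pax5 target, read 4.92, 4.60 and 4.75 against 4.92, 5.33, 4.78 and 4.75 and overlapped (0.19, limma adjusted p = 0.835). Its partner Cd79b (-0.25) and the heavy-chain genes Ighm (0.03) and Igha (-0.39) did not pass either, with limma adjusted p of 0.678, 0.923 and 0.428. Cd79a and Ighm (6.17 to 6.34 log2 units) read below the median gene (7.23) on all 7 arrays. Whether background signal hid a change there was not tested.

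Counted by list, 1 of 28 mature B-cell markers rose (Ms4a1, list median 0.12), 1 of 28 B-cell receptor signalling genes (Fcgr2b, 0.06) and 1 of 24 genes known to be activated by Pax5 (Irf8, 0.10), with 0 falling in each, against 0.100% of all genes rising and a median of -0.0033. More members had non-overlapping groups. In these lists, which share some genes, 8, 5 and 6 were higher and 1, 2 and 1 lower, where 5.02% and 6.56% of all genes were. Of the 30 measured genes known to be repressed by Pax5, 0 passed limma's threshold in either direction (list median -0.03); by non-overlapping groups 2 were higher and 2 lower, near the 5.02% and 6.56% of all genes. Its members of smallest p were Sdc1 (-1.14, limma adjusted p = 0.119), also a plasma-cell gene, the plexin gene Plxnd1 (0.78, limma adjusted p = 0.150) and the T-cell adaptor gene Grap2 (-0.86, limma adjusted p = 0.256). Without replicate 1, 1 of these 30 genes passed, lower, as did 4 of the 28 mature B-cell markers, 2 of the 28 B-cell receptor signalling genes and 3 of the 24 genes activated by Pax5, all higher. In that fit 0.717% of all genes were called higher and 0.762% lower. Pro-B and pre-B cell genes had 0 of 16 past the threshold and 0 with non-overlapping groups. Vpreb3, a chaperone of immunoglobulin light chains, read 9.26, 9.14 and 9.11 against 10.96, 9.83, 9.26 and 9.70, and the progenitor factor gene Myb 7.76, 8.21 and 7.75 against 9.53, 8.47, 7.60 and 8.28, replicate 1 being the highest in both.

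The largest changes among called genes were in a lipid receptor and a semaphorin receptor. Cd36, a scavenger receptor that takes up fatty acids and oxidised lipoproteins, read 4.73, 4.82 and 4.82 with empty vector and 11.82, 10.22, 8.86 and 10.80 with G183S. The log2 difference of 5.63 ± 0.54 SE (limma adjusted p = 0.00311) was the largest among called genes, and the G183S arrays spread widely, with replicate 1 highest and replicate 3 lowest. Plxnc1, a semaphorin receptor, read 5.79, 5.41 and 5.88 against 9.52, 9.54, 7.43 and 9.50 (3.30 ± 0.48 SE, limma adjusted p = 0.0249), again with replicate 3 lowest. In the lists around them no other member rose: Cd36 was the only 1 of 17 lipid uptake and efflux genes past the threshold, and Plxnc1 the only 1 of 20 plexin, semaphorin and neuropilin genes. Of all genes 0.100% rose.

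Sialyl- and fucosyltransferases, which cap the glycans of surface and secreted proteins, moved in both directions. St3gal6 read 7.43, 7.20 and 6.83 with empty vector and 10.11, 9.62, 9.31 and 9.65 with G183S (2.52 ± 0.20 SE, limma adjusted p = 0.00117). St3gal2, another enzyme adding sialic acid in the same linkage, read 9.77, 9.90 and 10.18 against 9.28, 9.05, 9.22 and 9.26 (-0.74 ± 0.10 SE, limma adjusted p = 0.0171), and Fut8, which adds the core fucose of N-glycans, 10.28, 10.27 and 10.41 against 9.36, 9.02, 9.33 and 9.27 (-1.08 ± 0.17 SE, limma adjusted p = 0.0384). Thus 1 of 18 measured members rose and 2 fell (0.100% and 0.211% of all genes), with no overlap of groups in any of the 3. St6gal1, the main enzyme of alpha-2,6 sialylation in B cells, read 10.46, 9.71 and 10.23 against 9.64, 7.48, 8.13 and 7.82; replicate 1 lay near the controls, and the gene passed only when that array was left out (log2 difference -2.33 ± 0.45 SE, limma adjusted p = 0.0420, against -1.87 and 0.196 with it).

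Actin and membrane-shaping genes had 3 of 23 members higher and 1 lower, against 0.100% and 0.211% of all genes, and a list median of -0.05. Bin1, a BAR-domain protein that bends membranes, read 6.93, 7.15 and 7.20 with empty vector and 9.76, 10.57, 9.62 and 10.49 with G183S (3.02 ± 0.27 SE, limma adjusted p = 0.00198). Fhod3, a formin that elongates actin filaments, read 6.46, 6.76 and 6.75 against 9.52, 9.08, 7.82 and 8.70 (2.13 ± 0.33 SE, limma adjusted p = 0.0372), and Psd3, an exchange factor for Arf6, read 8.55, 8.13 and 8.04 against 9.70, 10.22, 9.35 and 9.92 (1.56 ± 0.21 SE, limma adjusted p = 0.0171). Replicate 3 was the lowest G183S array in all 3. The member that fell was Rhob, a small GTPase of endosomal traffic that is also an immediate early gene, at 11.03, 11.41 and 11.36 against 9.97, 9.99, 10.15 and 10.40 (-1.14 ± 0.12 SE, limma adjusted p = 0.00625).

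Rgs1, which speeds up the shut-off of chemokine receptor G proteins in B cells, also rose. It read 5.43, 5.08 and 5.07 with empty vector and 6.76, 5.90, 6.98 and 6.46 with G183S (1.33 ± 0.22 SE, limma adjusted p = 0.0486). In contrast to Cd36 and Fhod3, replicate 3 was here the highest G183S array. Of the 20 called higher genes, 10 had an empty-vector mean below the median gene (7.23 log2 units), and no detection call was used here, so how far background signal limits the size of their differences was not tested.

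Among the 13 named genes that fell by at least 1 log2 unit were genes of platelet and endothelial adhesion. Gp9, a subunit of the platelet von Willebrand factor receptor, read 8.42, 8.71 and 8.69 with empty vector and 7.32, 6.95, 7.07 and 7.18 with G183S (-1.48 ± 0.12 SE, limma adjusted p = 0.00129). Pecam1, the adhesion molecule CD31 of endothelial cells, platelets and plasma cells, read 8.30, 8.82 and 8.88 against 7.40, 6.76, 7.24 and 7.09 (-1.54 ± 0.23 SE, limma adjusted p = 0.0303). They were 2 of 16 platelet and endothelial genes measured, against 0.211% of all genes lower; 0 rose, and the list median was 0.02.

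**Figure D3:**
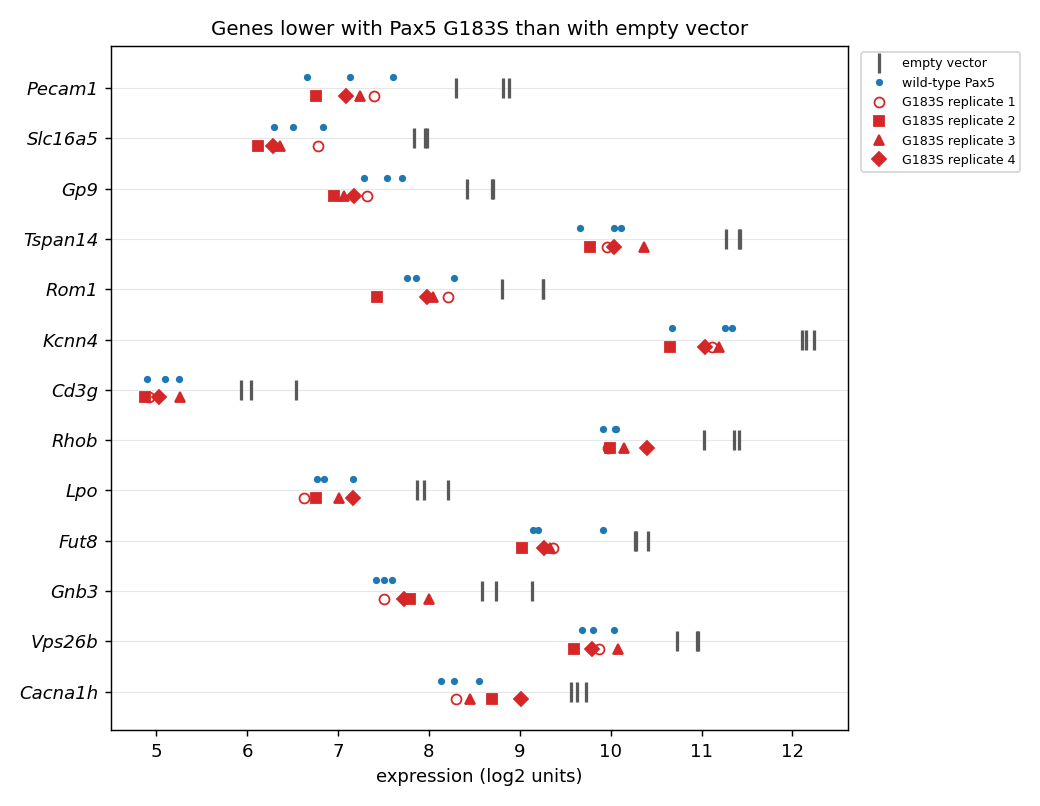
Expression in log2 units (x axis) of 13 genes called lower with G183S by at least 1 log2 unit (y axis, ordered by the difference). Grey bars are empty-vector arrays, blue dots wild-type arrays and red symbols the 4 G183S arrays, replicate 1 open; all red symbols lie left of all grey bars.

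A transporter gene and a pair of channel genes were among those that fell. Slc16a5, of the monocarboxylate transporter family, read 7.83, 7.96 and 7.98 with empty vector and 6.78, 6.12, 6.36 and 6.28 with G183S (-1.54 ± 0.16 SE, limma adjusted p = 0.00582). Kcnn4, the calcium-activated potassium channel of lymphocytes, read 12.11, 12.15 and 12.24 against 11.11, 10.65, 11.19 and 11.04 (-1.17 ± 0.17 SE, limma adjusted p = 0.0230). Slc16a5 and Kcnn4 were 2 of 20 potassium channel and monocarboxylate transporter genes, against 0.211% of all genes lower; 0 of the list rose, 14 of its 20 means were higher and its median was 0.06. Cacna1h, a T-type calcium channel, read 9.56, 9.63 and 9.73 against 8.30, 8.69, 8.45 and 9.01 (-1.03 ± 0.16 SE, limma adjusted p = 0.0348); G183S replicate 4 was the array nearest to the controls.

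Tspan14, Rom1 and Vps26b fell as well. Tspan14, a tetraspanin that carries the protease ADAM10, read 11.27, 11.42 and 11.41 against 9.96, 9.77, 10.37 and 10.04 (-1.33 ± 0.14 SE, limma adjusted p = 0.00625), the 1 of 19 tetraspanins to pass, against 0.211% of all genes lower. Rom1, another protein of that superfamily known from photoreceptors, read 8.80, 9.25 and 9.25 against 8.21, 7.43, 8.04 and 7.98 (-1.19 ± 0.20 SE, limma adjusted p = 0.0449). Vps26b, a subunit of the retromer that recycles cargo from endosomes, read 10.73, 10.96 and 10.95 against 9.87, 9.60, 10.08 and 9.79 (-1.04 ± 0.12 SE, limma adjusted p = 0.0103). None of these 3 had overlapping groups.

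Cd3g, a chain of the T-cell receptor complex, read 6.54, 6.04 and 5.93 with empty vector and 4.92, 4.87, 5.26 and 5.03 with G183S (-1.15 ± 0.15 SE, limma adjusted p = 0.0171). It was the 1 of 17 T-cell markers to pass, against 0.211% of all genes lower. Cd4 read 7.09, 9.29 and 7.60 against 6.65, 6.40, 6.77 and 6.54, with empty-vector replicate 2 far above the other controls, and did not pass (-1.41 ± 0.41 SE, limma adjusted p = 0.181). The T-cell receptor variable segment Trav14-1, chosen after its values were seen because it had the largest fall of all, read 7.12 ± 0.53 (SD, n = 3) with empty vector and 4.54 ± 0.23 (n = 4) with G183S (-2.58 ± 0.28 SE, limma adjusted p = 0.00625). Of the 17 T-cell markers, 13 lay below the median gene on all 7 arrays.

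A pair of G-protein subunits and a peroxidase also fell. Gnb3, a G-protein beta subunit, read 9.13, 8.58 and 8.74 against 7.50, 7.79, 8.0 and 7.73 (-1.06 ± 0.14 SE, limma adjusted p = 0.0171). Gnaz, a G-protein alpha subunit chosen after its value was seen, fell by 0.92 ± 0.13 SE log2 units (limma adjusted p = 0.0220). Lpo, the peroxidase of secretions such as milk and saliva, read 7.87, 8.21 and 7.94 against 6.62, 6.76, 7.01 and 7.16 (-1.12 ± 0.15 SE, limma adjusted p = 0.0171).

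The 33 called genes that changed by less than 1 log2 unit were 6 higher and 27 lower. List members among them were St3gal2, the histone deacetylase gene Hdac5 (9.90, 10.03 and 10.05 against 9.09, 9.47, 9.43 and 9.53; -0.61 ± 0.10 SE, limma adjusted p = 0.0453) and the AP-1 subunit gene Jund (11.26, 11.18 and 11.23 against 10.81, 10.69, 10.73 and 10.88; -0.45 ± 0.07 SE, limma adjusted p = 0.0421). Hdac5 was the 1 of 20 Groucho and histone deacetylase co-repressor genes to pass, against 0.211% of all genes lower. The Groucho-family genes Tle6 (-1.30, limma adjusted p = 0.0762) and Tle5 (-0.33, limma adjusted p = 0.0931) did not pass. In Tle6 replicate 3 read 9.77 against 8.44 to 8.77 in the other G183S arrays and 10.18 to 10.27 in the controls. With Rhob, Jund made 2 of 23 immediate early genes lower and 0 higher, against 0.211% and 0.100% of all genes. Egr1 read 7.87, 7.92 and 7.67 against 8.33, 8.50, 8.45 and 8.77 and did not pass (0.69, limma adjusted p = 0.106). Chosen after their values were seen, the haematopoietic transcription factor gene Lyl1 (-0.74), the insulin-like growth factor receptor gene Igf1r (-0.56), the Myc-antagonist gene Mxi1 (-0.43), the granule-secretion gene Rab27a (-0.70), the phosphoglucomutase gene Pgm1 (-0.71) and the aldehyde dehydrogenase gene Aldh2 (-0.66) had log2 changes of this size, with limma adjusted p of 0.0129, 0.0112, 0.0351, 0.0344, 0.0163 and 0.00901. Zfp523 fell by 0.65 ± 0.06 SE log2 units, from 9.72 ± 0.04 (SD, n = 3) to 9.07 ± 0.03 (n = 4; limma adjusted p = 0.00170).

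For the letters GCGTGAC, a core of Pax paired-domain sites, the same promoter windows were searched on both strands. None of 16 windows of 14 called higher genes other than Pax5 held it, 2 of 42 windows of 31 called lower genes did (Coq3 and Lpo), and 687 of 32851 windows over all genes did (2.09%). The windows end 250 bases upstream, and the absence of these letters there says nothing about binding elsewhere.

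Each G183S array was then set against genes called without it, so that its values were not used in the call, although the empty-vector arrays were. Genes called without replicates 2 and 4 were few, and in all of them the array left out lay beyond the empty-vector range in the called direction (8 of 8 higher and 14 of 14 lower for replicate 2, 6 of 6 and 18 of 18 for replicate 4). For replicate 3 it did so in 64 of 69 higher and 70 of 75 lower genes, although its median log2 difference from empty vector was 0.34 for the higher genes against 0.83 in the other arrays. Over all genes, replicates 2, 3 and 4 lay above the range in 27%, 33.3% and 28.6%, and below it in 32.8%, 29.1% and 30.4%. Replicate 1 lay beyond the range in 125 of 152 lower genes (82.2%) and 85 of 143 higher genes (59.4%), where 33.1% and 28.2% of all genes did. Its median log2 difference was -0.35 for the lower genes and 0.18 for the higher ones, against -0.65 and 0.63 in the other arrays. In each such contrast the other arrays were used in the call, which favours larger differences in them than in the array left out.

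**Figure D4:**
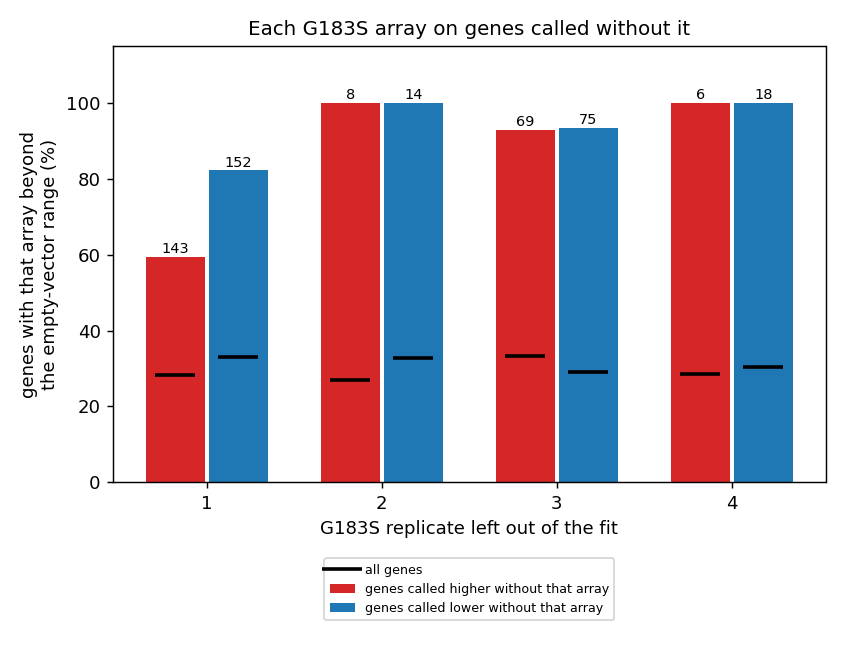
Share of genes (y axis, percent) in which a G183S array left out of the fit (x axis, replicate number) lay beyond the empty-vector range in the called direction; red bars are genes called higher and blue bars genes called lower without that array, numbers give how many genes, and black lines the share over all genes. Replicate 1 has the lowest bars, 59.4% and 82.2%, and replicates 2 and 4 reach 100% on few genes.

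Without replicate 1, limma called 295 genes (1.48%), with 143 higher (0.717%) and 152 lower (0.762%). They included all 62 called with every array, and 233 further genes. Of the 123 further higher genes, replicate 1 lay above the empty-vector range in 65, within it in 27 and below it in 31; of the 110 further lower genes it lay below the range in 83, within it in 15 and above it in 12.

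Of the further higher genes, those of largest change were as follows. Lcn2, a siderophore-binding protein induced in inflammation, read 9.11, 7.05 and 7.23 with empty vector and 9.97, 11.61, 11.14 and 10.71 with G183S (3.06 ± 0.61 SE, limma adjusted p = 0.0762; 3.36 ± 0.61 SE and 0.0355 without replicate 1). Lilrb4a, an inhibitory immunoglobulin-like receptor, read 8.27, 6.90 and 6.42 against 8.49, 9.89, 10.63 and 9.68, and its close paralogue Lilr4b 7.62, 5.76 and 6.10 against 7.85, 9.09, 10.06 and 8.97; probe sets of such similar genes can share signal. In these 3 genes empty-vector replicate 1 was the highest control. Cd80, a co-stimulatory ligand for CD28, read 8.54, 8.14 and 7.86 against 8.94, 11.32, 10.25 and 10.76 (2.14 ± 0.59 SE, limma adjusted p = 0.156; 2.60 ± 0.48 SE and 0.0384 without replicate 1). Ndrg1, a stress- and hypoxia-induced gene, read 8.34, 7.98 and 8.10 against 8.36, 10.20, 10.08 and 10.32, so that replicate 1 lay at the level of the controls. Gpat3, an acyltransferase of triglyceride synthesis, read 8.11, 8.21 and 8.04 against 8.77, 10.10, 9.48 and 10.13 (limma adjusted p = 0.0843; 0.0143 without replicate 1).

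None of the 20 measured NF-kB targets and subunits passed with all arrays and 2 did without replicate 1, both higher, where 0.717% of all genes were called higher. The list median of the log2 differences was 0.20, and 0.34 without replicate 1; relative to the empty-vector mean it was 0.10, 0.35, 0.23 and 0.37 in replicates 1 to 4. Cd40, a receptor for T-cell help, read 7.00, 7.23 and 7.12 with empty vector and 7.67, 8.41, 8.19 and 8.62 with G183S (1.11 ± 0.30 SE, limma adjusted p = 0.151), and the signalling adaptor gene Traf1 read 6.56, 6.32 and 6.14 against 6.64, 7.29, 7.87 and 7.35 (0.95, limma adjusted p = 0.171). Ebi3, a cytokine subunit gene, passed without replicate 1 (0.91, limma adjusted p = 0.0843 with it and 0.0431 without). For the inhibitor gene Nfkbia replicate 1 read 10.88, below the other G183S arrays (11.75 to 12.09) and the controls (11.73 to 11.97), and Relb read 8.05 there against 8.89 to 9.05 and 8.48 to 8.59.

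Plasma-cell genes had 0 of 22 past the threshold with all arrays and 3 without replicate 1, all lower, where 0.762% of all genes were called lower. The list median was -0.18 with all arrays and -0.36 without replicate 1. Tnfrsf17, the survival receptor BCMA, read 10.83, 11.04 and 11.36 with empty vector and 10.25, 7.72, 8.96 and 9.04 with G183S (-2.08 ± 0.51 SE, limma adjusted p = 0.119; -2.50 ± 0.40 SE and 0.0246 without replicate 1). Sdc1, the surface proteoglycan CD138 used to sort plasma cells, read 11.22, 11.51 and 11.48 against 11.03, 9.73, 9.84 and 10.45 (-1.14 ± 0.28 SE, limma adjusted p = 0.119; -1.40 ± 0.20 SE and 0.0168 without). In both genes all G183S arrays lay below all controls, replicate 1 nearest to them. Derl3, which helps to clear misfolded proteins from the endoplasmic reticulum, passed without replicate 1 too, at 11.39, 11.43 and 11.64 against 11.44, 10.69, 10.95 and 10.84 (limma adjusted p = 0.200, and 0.0186 without replicate 1). For Tnfrsf13b, the receptor TACI, replicate 1 did not stand apart (12.02, 12.05 and 12.07 against 11.40, 11.44, 11.49 and 11.49; -0.59 ± 0.15 SE, limma adjusted p = 0.123).

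The factors that set the plasma-cell programme overlapped between the groups. Prdm1, the repressor Blimp-1, read 10.46, 10.40 and 10.51 against 11.14, 10.16, 9.96 and 10.13 (-0.11, limma adjusted p = 0.951), with replicate 1 above every control and the other G183S arrays below. Irf4, which acts with Prdm1 in plasma cells, had replicate 1 above every control and replicates 3 and 4 below, at 11.80, 11.77 and 12.02 against 12.59, 11.88, 11.34 and 11.62 (-0.01, limma adjusted p = 0.998). Xbp1, the factor of the secretory expansion, read 12.94, 13.04 and 13.06 against 13.03, 12.42, 12.69 and 12.59 (-0.33, limma adjusted p = 0.417; -0.45 and 0.0815 without replicate 1). The plasma-cell list's median relative to the empty-vector mean was 0.04 in replicate 1 and -0.42, -0.41 and -0.29 in replicates 2, 3 and 4.

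The genes in which replicate 1 lay furthest from the other G183S arrays, chosen for that and so given with no test, are of several kinds. Lrrc8e, a subunit of volume-regulated anion channels, read 6.56 in replicate 1 and 9.72, 10.15 and 9.69 in replicates 2 to 4, with 9.54, 8.46 and 8.17 in the empty-vector arrays and 6.01, 6.83 and 7.77 in the wild-type arrays. Tmem184a (6.25 against 8.68, 8.72 and 8.75), Pcbd1, a dehydratase of pterin metabolism (7.33 against 9.51, 10.03 and 9.74), Acod1, the itaconate-producing enzyme of activated macrophages (8.07 against 10.03, 10.41 and 10.15), the small GTPase gene Rem2 (6.92 against 8.78, 9.25 and 9.01), the complement regulator gene Cd59b (5.41 against 7.61, 7.56 and 7.09), Evi5l (7.77 against 9.63, 9.79 and 9.65) and Ppil6 (5.29 against 7.41, 7.40 and 7.85) were low in replicate 1 as well. High in replicate 1 were H2-Ea and H2-Aa, Zfp979 (8.23 against 5.26, 6.02 and 6.03), Pcp4 (8.67 against 7.01, 6.47 and 6.51), Gpr155 (10.23 against 8.22, 7.83 and 8.69), the calcium-binding protein gene Ocm (7.99 against 6.21, 5.79 and 6.10) and the mannosidase gene Man1a (7.07 against 5.43, 4.90 and 5.07). In Zfp979 the wild-type arrays read 7.97, 7.63 and 7.42 and the empty-vector arrays 6.11, 5.00 and 4.87, so that replicate 1 was close to the wild-type arrays.

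**Figure D5:**
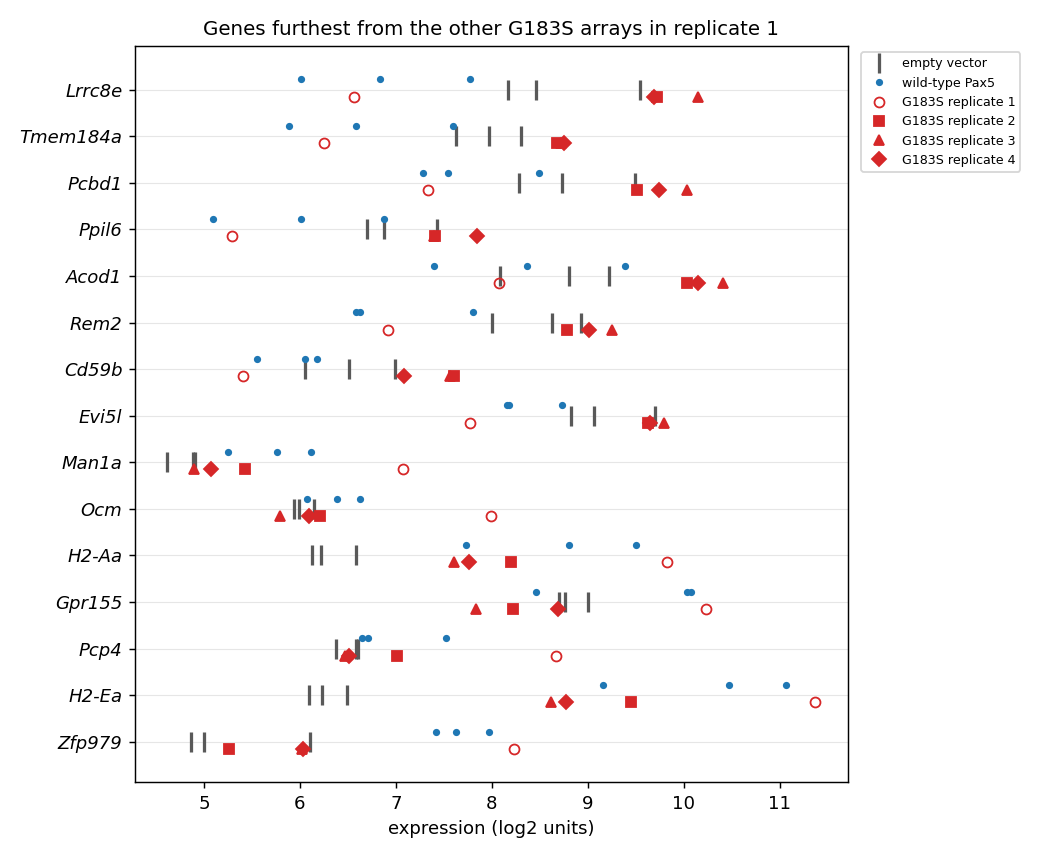
Expression in log2 units (x axis) of 8 genes lowest and 7 of those highest in G183S replicate 1 (open red circle) relative to the other G183S arrays (filled red symbols), which spanned less than 1 log2 unit; grey bars are empty-vector and blue dots wild-type arrays. Replicate 1 minus the mean of the other G183S arrays is -3.30 to -1.92 log2 units in the upper 8 genes and 1.94 to 2.46 in the lower 7.

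Direct comparison with wild-type Pax5, which asks whether the altered protein acted differently, gave 0 of 19937 genes (0%) past limma's threshold, and 1891 had an unadjusted p under 0.05; with array weights limma called 2752 and without G183S replicate 1 it called 1113. Among the genes called against empty vector, the difference between G183S and wild type ran from -1.24 to 0.90 log2 units for the higher genes and from -0.52 to 0.35 for the lower ones. The comparisons with empty vector share the 3 control arrays, so the values are given side by side and likeness between them is not independent. The wild-type mean lay above empty vector in all 20 called higher genes and below it in all 42 called lower ones. For wild type against empty vector, limma also called 19 of these 20 higher and 37 of these 42 lower. St3gal6 read 11.07, 10.82 and 10.60 in the wild-type arrays, above all G183S arrays, and differed by -1.16 ± 0.20 SE (limma adjusted p = 0.279). Fhod3 (10.37, 9.74 and 9.94) also lay above all G183S arrays (-1.24 ± 0.33 SE, limma adjusted p = 0.484). Rgs1 was at 5.48, 5.56 and 5.85 in the wild-type arrays, below all G183S arrays (0.90 ± 0.22 SE, limma adjusted p = 0.484). For Fcgr2b (-0.02 ± 0.14 SE), H2-Ob (0.08 ± 0.19 SE), Pecam1 (-0.01 ± 0.23 SE), Vps26b (-0.01 ± 0.12 SE) and Lpo (-0.04 ± 0.15 SE) the log2 difference between the proteins was smaller than its standard error.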

How the data were processed

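The deposited values are log2 expression of 34760 Affymetrix probe sets on 10 arrays, and the submitters' processing notes name RMA and Partek without versions or settings. RMA gives all arrays 1 distribution of values, which hides any shift common to most genes. Arrays have no read depth; precision depends on how many arrays each group has. Probe sets with 1 gene symbol in the platform annotation (21640; 1321 had several and 11799 were not listed) gave 19937 genes, with the probe set of highest mean kept where a gene had several (954 genes).

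Values were fitted with limma 3.58.1 in R 4.3.3, 1 coefficient per group over all 10 arrays, which share the estimate of spread (7 residual degrees of freedom). P-values were moderated with eBayes and adjusted by Benjamini-Hochberg over all genes, and a gene was called at an adjusted p under 0.05. The script was tested on simulated data. Tables, promoter searches and plots were made with Python 3.11.15, pandas 2.3.3, numpy 2.4.6 and matplotlib 3.10.9.

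Named genes were Pax5, all called genes that changed by at least 1 log2 unit, called members and up to 3 members of smallest p in each of 29 gene lists, 14 genes of the B-cell and plasma-cell programmes, the 8 higher and 8 lower genes of largest difference called only without G183S replicate 1, and the 8 genes highest and 8 lowest in that array; predicted genes, clones, small RNAs, olfactory receptors and antigen-receptor segments were left out, and other list members are given where the list is described. Of the called genes this rule names, 1 is not reported here, and its uncalled genes are given only in part. The comparison, members and lists were chosen with earlier results of these data known. Alternatives left out each array, used only the 7 arrays, centred arrays, left out dim genes, averaged probe sets, weighted arrays, changed the moderation or added the replicate number as a block.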

Additional observations from a re-analysis of the deposited data

Results flagged for a closer look

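Among the named genes, 7 had a G183S array far from the other G183S arrays, by the ratio of its gap to the group's range (Dixon's 95% critical value for 4 samples). Chance gives such a gap in about 1 of 20 groups, for any of the arrays and at either end. The 7 are close to that share of the named genes, so their number is not a result about these genes. In G183S replicate 3, Plxnc1 read 7.43 log2 units against 9.50 to 9.54 in the other G183S arrays, and the interferon-induced transcription factor gene Irf7 read 8.03. In G183S replicate 1, Ndrg1 read 8.36, Lrrc8e 6.56, Tmem184a 6.25, Acod1 8.07 and Evi5l 7.77, each the lowest of the group. The last 4 were named because replicate 1 was extreme in them. Ndrg1 was named because it was called only without replicate 1, a choice that also favours genes in which that array departs. Over all 19937 genes, replicate 1 was such a lowest or highest array in 4.4% (541 low and 337 high), replicate 2 in 0.602%, replicate 3 in 1.64% and replicate 4 in 0.813%. The 1 of 20 covers all arrays of a group together, so the share that chance gives a single array is well below it.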

How the results depend on the processing

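Counts of called genes moved far more than the genes' differences. Against empty vector, where 62 of all genes were called, array weights (G183S replicate 1 at 0.335) gave 1449 (721 higher, 728 lower) and the replicate number as a block gave 10 (6 and 4), 9 of them among the 62; leaving out 1 array gave 8 to 295 in all, 6 to 143 higher and 2 to 152 lower. The cause was not tested. With the 7 arrays alone, centring, dim genes left out, averaged probe sets and intensity trend with robust prior the count was 51 to 84. G183S against wild type gave 2752 genes with array weights, 2 with the block, 0 to 1113 with 1 array left out, and 0 under the other alternatives. Among 30 named called genes the sign was the same under every alternative that tested them, and no named gene reversed past the threshold. Leaving out an array could not change the sign of a called gene, because the groups of these genes did not overlap. The labels share only replicate numbers between groups, and the numbers were not taken as pairs. Deviations of same-numbered empty-vector and G183S arrays from their group means correlated at -0.162, 0.108 and -0.160 for replicates 1 to 3. Different-numbered arrays of these groups ran from -0.220 to 0.285. For wild type and G183S the same-numbered values were 0.507, -0.162 and 0.455, against -0.581 to 0.267 for different numbers. Whether same-numbered arrays of wild type and G183S shared a batch was not tested. With the block, G183S replicate 4, which has no same-numbered partner, adds nothing. Precision is limited by 3 and 4 arrays, and by signal near background where genes are dim.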

Other observations

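The lists of glycolysis, cell-cycle, interferon-stimulated, sterol and fatty acid synthesis, endoplasmic reticulum and reference genes had 0 called members by limma with all arrays. Glycolysis genes had 15 of 16 means lower with G183S and a median log2 difference of -0.18, with Tpi1, the triose phosphate isomerase gene, past limma's threshold only without replicate 1 (-0.57, limma adjusted p = 0.0295). Cell-cycle genes differed in direction between the G183S arrays: their median relative to the empty-vector mean was 0.45, 0.19, -0.36 and 0.08 in replicates 1 to 4, and -0.31, 0.16 and 0.18 in the empty-vector arrays. Interferon-stimulated genes had a median of -0.13 over 20 measured, cholesterol and fatty acid synthesis genes -0.12 over 20, and endoplasmic reticulum chaperone and stress genes 0.03 over 28. Of 12 reference genes 3 had non-overlapping groups higher and 1 lower, where 5.02% and 6.56% of all genes did.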
